A study of Arabidopsis thaliana with 9 samples.

Results

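The floral integrator and floral identity genes of Arabidopsis thaliana were followed here through their H3K4me3 peaks in seedlings. They are 9 protein-coding genes, taken by locus out of 27444 on chromosomes 1 to 5. The integrators are SOC1 (AT2G45660), AGL24 (AT4G24540) and TSF (AT4G20370). LFY (AT5G61850), AP1 (AT1G69120) and FUL (AT5G60910) give the young meristem its floral identity, SEP3 (AT1G24260) and SEP4 (AT2G03710) act in floral organs, and TFL1 (AT5G03840) opposes them. For each gene the bp of peak were counted over the gene body and 500 bp on both sides, called the gene window below. The study measured H3K4me3 by chromatin immunoprecipitation and sequencing in 12-day-old seedlings of the ecotype Col-0. The groups were the wild type, the mutant jmj28-2 and the mutant atx1/2, with 2 H3K4me3 libraries each. All plants were grown on medium with 1% sucrose in 16 h of light and 8 h of dark at 23 °C. The labels do not name the alleles behind atx1/2, nor do they call the replicate libraries separate cultures, so a p-value here measures library-to-library spread, which may be technical.

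H3K4me3 is laid down by Trithorax-type methyltransferases, among them ATX1 and ATX2, and marks the 5′ part of transcribed genes. JMJ28 belongs to the JmjC-domain family of histone demethylases. In the seedling, day length and age signals meet at the integrators: SOC1 and AGL24 are MADS-box factors that together activate LFY, and TSF is a close relative of the florigen FT. LFY then switches on AP1, and both call up SEP3. AP1 and TFL1 repress each other at the shoot tip, where TFL1 keeps the meristem indeterminate. Many of these genes are classic targets of Polycomb repression before flowering.

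Each H3K4me3 library came with 1 list of peaks, with positions in the build TAIR10 and a score per peak. The lists held 14291 to 14493 peaks on chromosomes 1 to 5, with median widths of 1801 to 1858 bp. Between 68.8% and 69.6% of the gene windows had a peak in a given library. The 2 lists of each genotype shared 1 peak with the same start and end, so no list had been deposited more than once. A peak is called on the whole seedling, so a mark in fewer cells and less of the mark per cell cannot be told apart. Read depth is unknown, since the lists give no counts.

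Of the 9 genes, 3 had a peak in their window in all 6 libraries, 2 in some libraries and 4 in none. SOC1, LFY and AGL24 made up the first group and SEP4 and FUL the second, while AP1, SEP3, TSF and TFL1 had no peak in any library. Over all protein-coding genes, 66.8% had a peak in all 6 libraries, 5.06% in 1 to 5 and 28.1% in none. Over the gene body alone, without the flanks, SOC1 and LFY were the members with a peak in all 6 libraries, against 61.5% of all genes. No library had a peak over the body of 5 members, which held for 33.3% of all genes. Only SOC1, LFY and AGL24 had a Col-0 peak to lose, and none of these 3 windows lost it in a mutant. Such a loss was rare, at 0.605% of all windows in jmj28-2 and 0.492% in atx1/2, so nothing is read from its absence here.

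**Figure D1:**
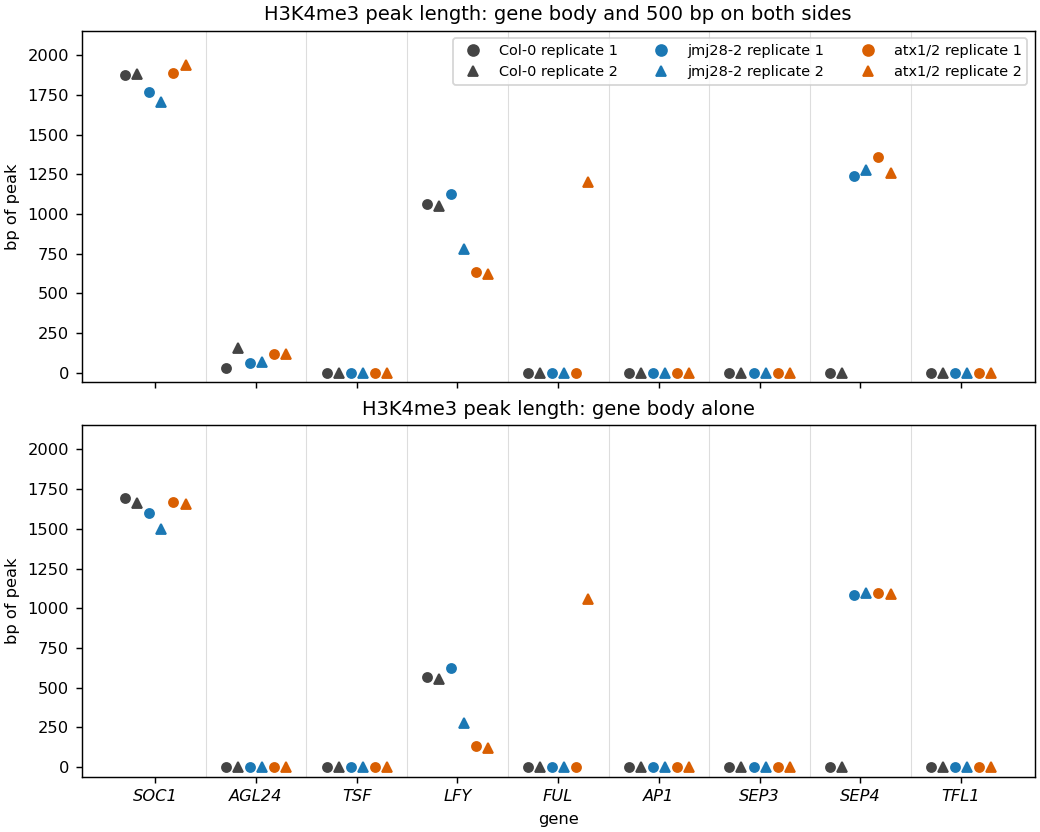
Bp of H3K4me3 peak (vertical axis) for each of the 9 genes in each library, over the gene window above and over the gene body below; colour gives the genotype and shape the replicate. SOC1 lies between 1707 and 1938 bp in every library, SEP4 is at 0 in Col-0 and at 1237 to 1359 bp in the mutants, and LFY is lowest in atx1/2.

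SOC1, which integrates photoperiod, age, cold and gibberellin signals, had a peak over its gene body in every library. Its window held 1872 and 1882 bp of peak for Col-0, 1770 and 1707 bp for jmj28-2, and 1887 and 1938 bp for atx1/2. Both jmj28-2 libraries lay below both Col-0 libraries, and both atx1/2 libraries lay above them. Such non-overlap was common: 26.0% of the tested windows were shorter in both jmj28-2 libraries than in both Col-0 libraries, and 13.7% were longer in both atx1/2 libraries. The means were 1877 ± 7.07 bp (SD, n = 2) for Col-0, 1738 ± 44.5 bp for jmj28-2 and 1912 ± 36.1 bp for atx1/2. On the scale of log2(bp + 200) the difference from Col-0 was -0.10 ± 0.026 (SE) in jmj28-2 and 0.02 ± 0.026 in atx1/2. Neither passed the threshold in limma across all genes (adjusted p = 0.489 and 0.838). The 2 mutants differed by 0.12 ± 0.026, which did not pass either (limma adjusted p = 0.373), and 20.7% of tested windows were longer in both atx1/2 than in both jmj28-2 libraries.

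The SOC1 peak covered the high-coordinate part of the gene (chromosome 2, 18809433 to 18811304 in Col-0 replicate 1) and ran past its end. The sources used here give no strand, so the 5′ end is not marked. The outer edge lay 173 to 279 bp beyond the gene in the 6 libraries, with the genotypes overlapping. The inner edge lay at 18809433 and 18809462 in Col-0, at 18809459 and 18809467 in atx1/2, and at 18809529 and 18809628 in jmj28-2. Both jmj28-2 peaks thus reached less far into the gene than the other 4. How often the edges of other peaks separate in this way was not counted, so nothing is read from it. AGL6, another MADS-box gene and the next gene on the low-coordinate side, had no peak in its window in any library.

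Peak scores are the authors' own values, used here only to rank peaks within a list. From the lowest score upwards, the SOC1 peak stood at percentile 26.3 and 18.7 in Col-0, at 17.8 and 15.8 in jmj28-2, and at 39.3 and 42.1 in atx1/2. In the atx1/2 lists the peak thus ranked above its place in the other 4 lists, and in jmj28-2 it ranked lowest. In width it was an ordinary peak, between percentile 35.5 and 62.1 of its lists. How often other peaks separate by rank in this way was not counted. Ranks from lists of different lengths were not tested, so nothing about a change in the mark is read from them.

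AGL24, a promoter of flowering that is close in sequence to the repressor SVP, had no peak on its gene body in any library. Its window held 33 and 155 bp of peak for Col-0, 61 and 68 bp for jmj28-2, and 118 and 122 bp for atx1/2. All of it was the end of a peak on the neighbouring gene AT4G24530 (chromosome 4, 12668507 to 12670429 in Col-0 replicate 1), which stopped 346 to 468 bp short of AGL24. On the other side, the next peak began 1133 to 1244 bp past the gene. The Col-0 libraries lay on either side of all others, and no difference passed the test (limma adjusted p = 0.919 in jmj28-2 and 0.886 in atx1/2). The atx1/2 mean of 120.0 bp exceeded the jmj28-2 mean of 64.5 bp without overlap, with a limma adjusted p of 0.844. Such non-overlap held for 20.7% of tested windows, and here it reflects only where the AT4G24530 peak ended. Leaving out 1 Col-0 library changed the calls: without Col-0 replicate 1 the log2 difference in jmj28-2 was -0.42 (limma adjusted p = 0.0453), and without Col-0 replicate 2 that in atx1/2 was 0.46 (adjusted p = 0.0326).

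TSF, which encodes a mobile flowering signal like FT, had no peak in its window in any of the 6 libraries. The nearest one lay 1075 to 1148 bp from the gene body in the 6 libraries, on LSD1, a regulator of cell death. This was nearer than for most genes without a peak. The median distance over the 7713 such genes was 2924 to 2994 bp across libraries, and 15.6% to 17.4% of them were nearer to a peak than TSF. The LSD1 peak had 1581 and 1627 bp for Col-0, 1544 and 1603 bp for jmj28-2 and 1633 and 1593 bp for atx1/2, with overlapping genotypes.

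LFY, the central regulator of floral meristem identity, had a peak in every library, but most of that peak lay outside the gene. The window held 1065 and 1052 bp of peak for Col-0, 1126 and 779 bp for jmj28-2, and 636 and 623 bp for atx1/2. Both atx1/2 libraries lay below the other 4, while the jmj28-2 libraries lay on either side of Col-0. Over the LFY body alone the values were 565 and 552 bp for Col-0, 626 and 279 bp for jmj28-2, and 136 and 123 bp for atx1/2. The peak thus covered 20.6% and 20.1% of the gene in Col-0 but 4.96% and 4.49% in atx1/2.

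The log2(bp + 200) difference of the LFY window from Col-0 was -0.60 ± 0.155 (SE) in atx1/2, with a 95% interval from -1.03 to -0.17. It did not pass the threshold in limma with all 6 libraries (adjusted p = 0.415; unadjusted p = 0.0175). Over the gene body alone it was -1.2 ± 0.299 (limma adjusted p = 0.411). In jmj28-2 the window's difference was -0.14 ± 0.155 (adjusted p = 0.837), and the mutants differed from each other by -0.46 ± 0.155 (adjusted p = 0.678). The spread in this fit came from the jmj28-2 libraries, with an SD of 245 bp against 9.19 bp in each of the other genotypes. Fitted with only the 4 Col-0 and atx1/2 libraries, limma gave the same difference an adjusted p of 0.00526. That fit called 389 of 19292 tested windows, and its p for LFY rests partly on the SD of 9.19 bp from 2 libraries per genotype. Without jmj28-2 replicate 1 or 2, LFY in jmj28-2 differed from Col-0 by -0.36 or by 0.08. In the same fits the mutants differed by -0.24 or by -0.68. Among tested windows, 23.1% were shorter without overlap in atx1/2 than in Col-0, and 14.9% were shorter than in jmj28-2.

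The edge of the LFY peak that lies inside LFY set both atx1/2 libraries apart. It stood at 24846425 and 24846438 on chromosome 5 in Col-0, at 24846364 and 24846711 in jmj28-2, and at 24846854 and 24846867 in atx1/2. The share of other peaks whose edges separate the genotypes like this was not counted. The far edge lay on the neighbouring gene AT5G61865, between 24848121 and 24848490, with Col-0 inside the range of atx1/2. The window of AT5G61865 takes in only part of the same peak, and part of another peak. Most of the edge shift inside LFY lies outside that window, so its length could hardly show the shift. Its log2 difference was -0.05 ± 0.0876 (SE; limma adjusted p = 0.914) in atx1/2 and 0.01 ± 0.0876 (adjusted p = 1.0) in jmj28-2, and did not pass the test. The LFY peak ranked low in every list, between percentile 10.1 and 14.0. Its score in Col-0 replicate 2 was 97.4, so that with a minimum score of 100 this library counted as 0 and the signs of both comparisons with Col-0 reversed.

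**Figure D2:**
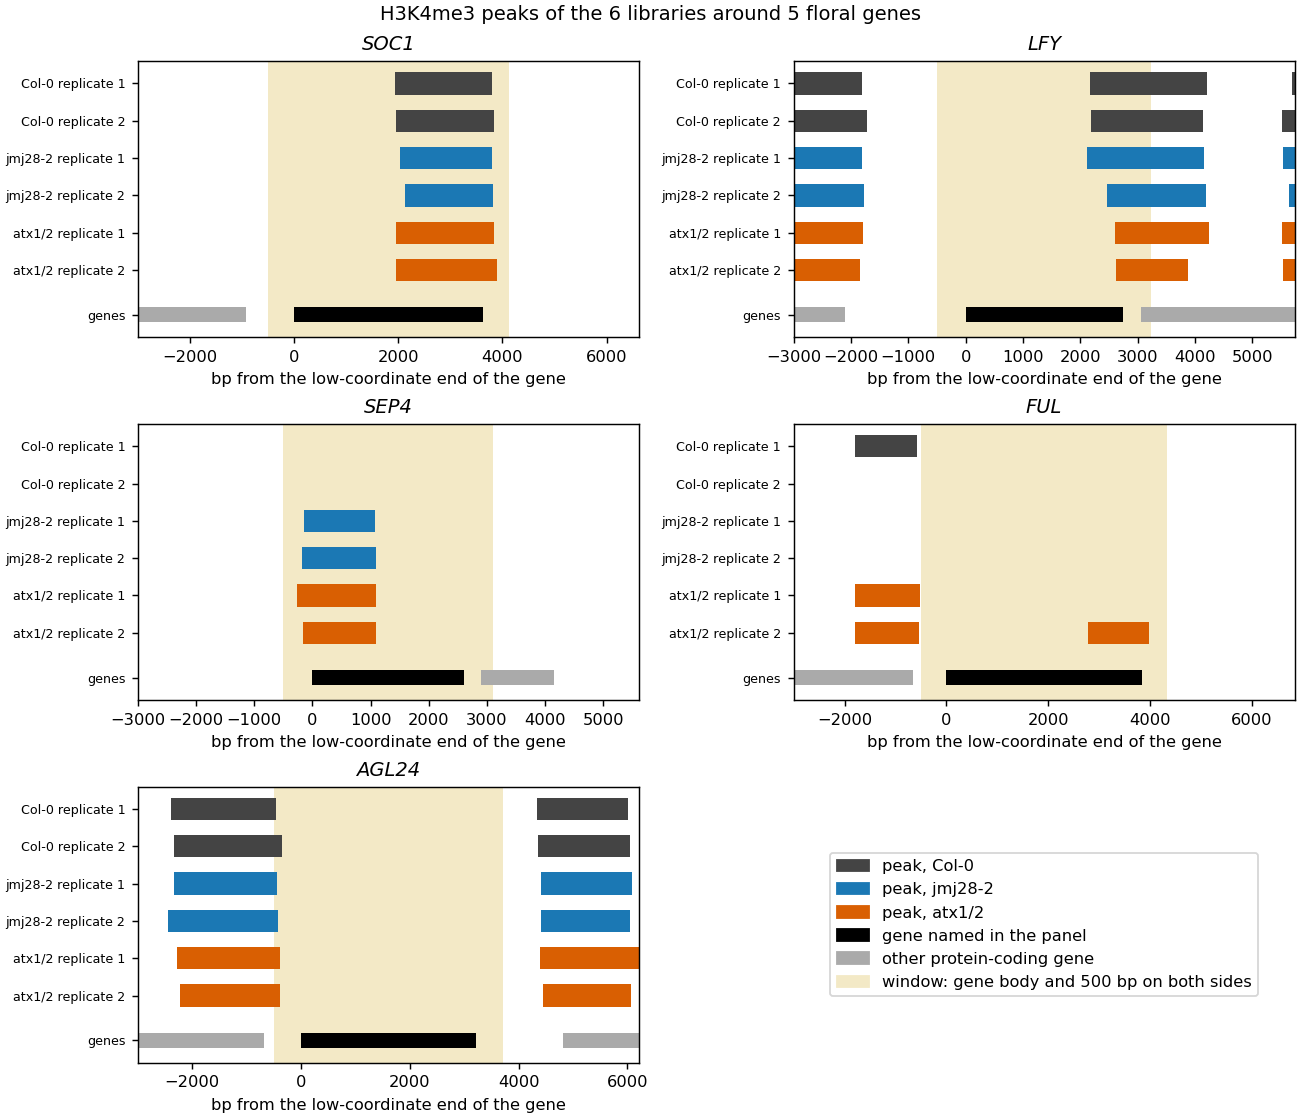
Peaks of the 6 libraries (coloured bars, 1 row per library) around SOC1, LFY, SEP4, FUL and AGL24, by distance in bp from the low-coordinate end of the named gene (black; other genes grey); shading marks the gene window. The SOC1 peak starts further from the low end in jmj28-2, the LFY peak reaches less far into the gene in atx1/2, and SEP4 has a peak in the 4 mutant libraries alone. Edges that separate genotypes were not counted over other peaks.

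AP1, the MADS-box gene that marks the floral meristem, had no peak in any library, and its surroundings were bare. The nearest peak lay 10292 to 10369 bp away, on AT1G69070, and 84.8% to 85.3% of the genes without a peak were nearer to one. The 3 genotypes were alike in this absence.

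FUL, which acts beside AP1 in the meristem and later in the fruit, had a peak in 1 library. In atx1/2 replicate 2 it covered 1200 bp (chromosome 5, 24505213 to 24506412), of which 1057 bp lay on the gene, while the other 5 libraries had 0 bp. A peak in a single library was found for 1.22% of all genes. The FUL peak stood at percentile 1.32 of its list, close to the lowest score, and it was absent when the same number of peaks was taken from every list. On the other side of FUL, a weak peak at the end of RLK1 stopped short of the window in Col-0 replicate 1 and both atx1/2 libraries, 525 to 581 bp from the FUL body, and was absent from the other 3 lists. With 2 libraries needed for a test, FUL was not tested.

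SEP4, one of the SEPALLATA genes that organ identity factors need as partners, gained a peak in both mutants. It had 0 bp in both Col-0 libraries, 1237 and 1280 bp for jmj28-2, and 1359 and 1256 bp for atx1/2. All 4 mutant libraries stood apart from Col-0 and overlapped each other. Windows with a peak in both libraries of a mutant and in neither of Col-0 made up 0.255% of all genes for jmj28-2 and 0.579% for atx1/2, and 0.138% (38 genes) for both mutants. The mutants are set against the same 2 Col-0 libraries, so these counts are not independent. SEP4 was also called longer by limma, with adjusted p = 4.93e-05 in jmj28-2 and 3.61e-05 in atx1/2. It entered the test through its mutant peaks, and 2 Col-0 libraries at 0 have no spread between them, so these p-values are too small. The mutants differed by 0.05 ± 0.041 on the log2 scale (95% interval from -0.07 to 0.16, limma adjusted p = 0.854).

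The SEP4 peak had nearly the same edges in the 4 libraries that held it. It began between 1128966 and 1129076 on chromosome 2 and ended between 1130312 and 1130326. It covered 41.5% to 42.1% of the gene, and no other protein-coding gene shared it. In Col-0 the nearest peak lay 5644 and 5668 bp away, on AT2G03690. The peak was weak, at percentile 2.67 and 2.11 of the jmj28-2 lists and 3.0 and 5.42 of the atx1/2 lists. It was short too, at most at percentile 6.64 of peak widths. Its scores were 29.6 to 55.5, where the lists start just above 20, so no library kept it at a minimum score of 100. It stayed in all 4 lists when the same number of peaks was taken from each. Whether Col-0 had a signal just under the calling threshold was not tested, as the lists hold called peaks alone.

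Among the 38 genes that gained a peak in both mutants, SEP4 was on the weak side. Its median score percentile over the 4 libraries was 2.84, against a median of 4.70 over these genes, and 28 of them ranked higher. The 3 genes with the most similar values over the 6 libraries, by Euclidean distance of log2(bp + 200), were AT5G58400 (0.0596), AT1G07485 and RTFL3 (both 0.0873). AT5G58400 had 0 bp in both Col-0 libraries, 1264 and 1299 bp for jmj28-2, and 1393 and 1296 bp for atx1/2. The values of AT1G07485 and RTFL3 were identical, as from 1 shared peak.

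SEP3, the SEPALLATA gene with the widest role in floral organs, had no peak in any library, unlike SEP4 in the mutants. Its nearest peak lay 3801 to 3873 bp away, on AT1G24265. Between 58.7% and 60.2% of genes without a peak were nearer to one, so SEP3 was close to the middle of them.

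TFL1, which shares the protein fold of FT and TSF but represses flowering, had no peak either. The nearest one lay 2061 to 2215 bp away on AT5G03850, and 37.5% to 40.3% of genes without a peak were nearer. The distances of the 3 genotypes overlapped.

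**Figure D3:**
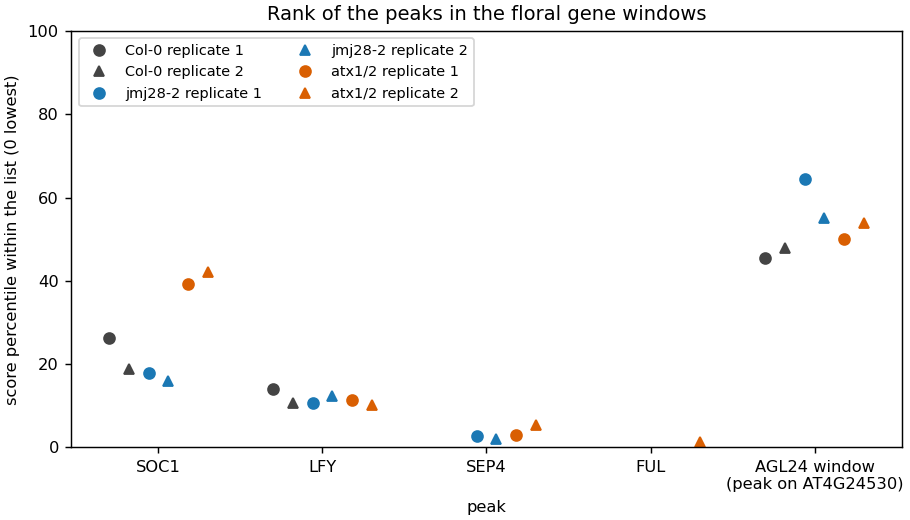
Score percentile of each peak in the windows of 5 genes within its own list (vertical axis, 0 lowest), by library; colour gives the genotype and shape the replicate. SOC1 ranks between 15.8 and 42.1, LFY between 10.1 and 14.0, and SEP4 and FUL at or below 5.42, while the peak at the AGL24 window belongs to AT4G24530.

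Per length, SOC1 stood above LFY in each genotype, and SEP4 stood above LFY only in the mutants. The place of SEP4 rests on weak peaks that no library kept at a minimum score of 100, and the order of the genes was not tested. In Col-0 the peak covered 46.8% and 46.0% of the SOC1 body and 20.6% and 20.1% of LFY, and the other 7 bodies were at 0. In jmj28-2, SOC1 (44.1% and 41.4%) and SEP4 (41.5% and 42.1%) overlapped, followed by LFY (22.8% and 10.2%). In atx1/2, SOC1 (46.0% and 45.8%) stood above SEP4 (42.0% and 41.8%), and LFY (4.96% and 4.49%) was lower. FUL had 0% and 27.6% there and could not be placed.

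Across all genes, limma called 1.24% of 19396 tested windows in jmj28-2, 1.6% in atx1/2 and 1.28% between the mutants. The windows called longer were 0.345% in jmj28-2 and 0.779% in atx1/2, and SEP4 was among them in both mutants. With 0 bp in both Col-0 libraries, SEP4 was tested only because of its mutant peaks, so nothing is read from its call against these shares. In all, 4 of the 9 windows had the 2 libraries with a peak that the test needed. In atx1/2 the calls were 151 longer and 160 shorter, but 101 and 193 with the same number of peaks per list, and between the mutants 174 longer and 75 shorter became 122 and 106. The number of longer calls also changed with the libraries used. Against Col-0 it rose in both mutants when either Col-0 library was left out. In atx1/2 it fell, against Col-0 and against jmj28-2, when either atx1/2 library was left out. Without either jmj28-2 library it rose in each comparison. At a score of 100 or more the longer calls against Col-0 rose from 67 to 117 in jmj28-2 and from 151 to 217 in atx1/2. SOC1, LFY and AGL24 were not called in any comparison of the 6-library fit. The test is of peak length, so a length that did not pass it does not show an unchanged H3K4me3 level.

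**Figure D4:**
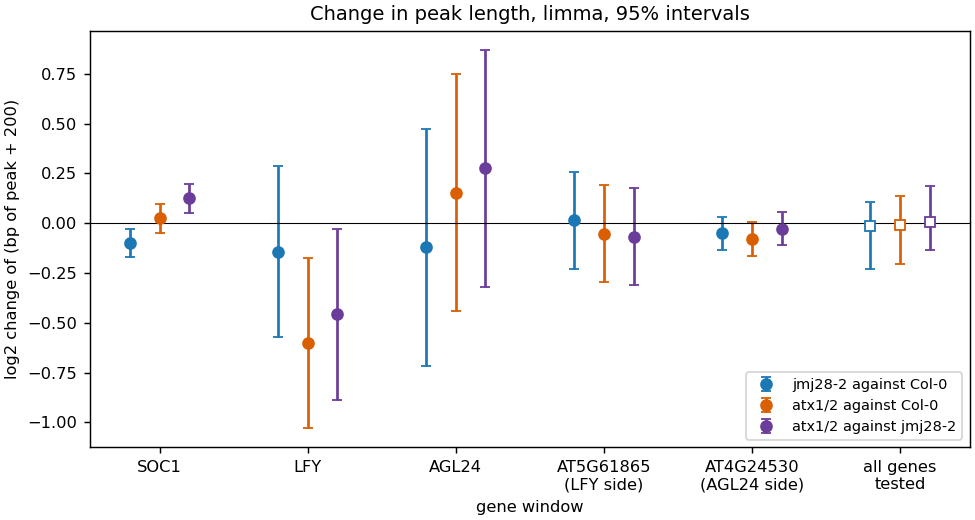
Log2 change in bp of peak + 200 (vertical axis) in limma for the SOC1, LFY and AGL24 windows and for the genes that share the LFY and AGL24 peaks, with 95% intervals, in 3 comparisons; open squares give the median and the range from the 5th to the 95th percentile over all tested genes. LFY in atx1/2 lies at -0.60 with an interval down to -1.03. AT5G61865, whose window leaves out most of the edge shift inside LFY, is at -0.05.

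Other flowering genes, in 6 lists with 48 genes, placed the 9 among their relatives. By limma, none of the 21 tested windows in the lists was called in either mutant or between them. Over all tested windows the calls were 1.24% in jmj28-2, 1.6% in atx1/2 and 1.28% between the mutants. Nothing is therefore read from their absence among 21. An unadjusted limma p under 0.05 was found for 1, 0 and 2 of the 21 in jmj28-2, in atx1/2 and between the mutants. The share of all tested windows under that limit was not counted. A peak in all 6 libraries was found for 19 of the 48, in some for 4 and in none for 25. The florigen and TFL1 family had none: FT, MFT, BFT, ATC, FD and FDP had 0 bp in every library, like TSF and TFL1. Among 11 floral organ MADS-box genes, 10 had no peak, including AP3, PI, AG, SEP1 and SEP2. CAL, the nearest relative of AP1, was the exception, with 875 and 885 bp for Col-0, 839 and 755 bp for jmj28-2, and 821 and 799 bp for atx1/2 (limma adjusted p = 0.673 and 0.699). Most of this lay outside the CAL gene body, which held 375 and 385 bp for Col-0, 339 and 255 bp for jmj28-2, and 321 and 299 bp for atx1/2.

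The relatives of SOC1 and AGL24 were mixed, with a peak in all libraries for 4 of 9, in 1 library for 2 and in none for 3. AGL17, among the 4, had 19 to 64 bp in its window and none on the gene body. SVP, a repressor of SOC1, had 2310 and 1733 bp for Col-0, 2100 and 1847 bp for jmj28-2, and 2255 and 2239 bp for atx1/2. AGL18, another repressor, had 1765 to 1870 bp for Col-0, 1694 to 1732 bp for jmj28-2 and 1836 to 1862 bp for atx1/2. AGL15 had 2431 bp in Col-0 replicate 2 and 814 to 875 bp in the other 5 libraries, of which 1570 bp and 314 to 375 bp lay on the gene body. AGL71 and AGL72 had 21 and 76 bp in 1 library each, none of it on the gene body, and so were not tested. SVP, AGL18 and AGL15 were tested and did not pass.

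Genes of the AP2 type, counted here with the TEM genes, include repressors of flowering that act on SOC1 or FT. Of these 8 genes, 7 had a peak in all libraries, the highest share of the 6 lists. TOE1 had 3029 and 3100 bp for Col-0, 2858 and 2722 bp for jmj28-2, and 2934 and 2948 bp for atx1/2, a log2 difference of -0.13 ± 0.030 (SE; limma adjusted p = 0.421) in jmj28-2. TEM2 had 2142 to 2522 bp over the 6 libraries. TOE3 was the eighth gene, with 1123 bp in Col-0 replicate 2 and 1155 bp in both atx1/2 libraries, and 0 bp in Col-0 replicate 1 and in jmj28-2. Its limma adjusted p was 0.774 in jmj28-2 and 0.777 in atx1/2.

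Age-dependent activators of the SPL family divided, with SPL9 (2854 to 3249 bp) and SPL15 (1542 to 1746 bp) marked in all libraries. SPL3 and SPL4 had no peak. SPL5 had 4 to 28 bp in 3 libraries, outside the gene body. Among meristem identity regulators 5 of 9 had a peak in all libraries. They included PNY, a homeodomain gene of the shoot apex, with 1602 to 1721 bp, and the Polycomb-group genes CLF, with 1893 to 2137 bp, and EMF1, with 1644 to 1763 bp. LMI1, LMI2, UFO and PNF had none. The median log2 difference of a list with tested genes lay between -0.12 and -0.03 in jmj28-2 and between -0.10 and 0.07 in atx1/2, against -0.02 and -0.01 over all tested genes. The values of -0.12 and -0.10 are from the floral organ MADS-box list, where CAL was the only gene tested.

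**Figure D5:**
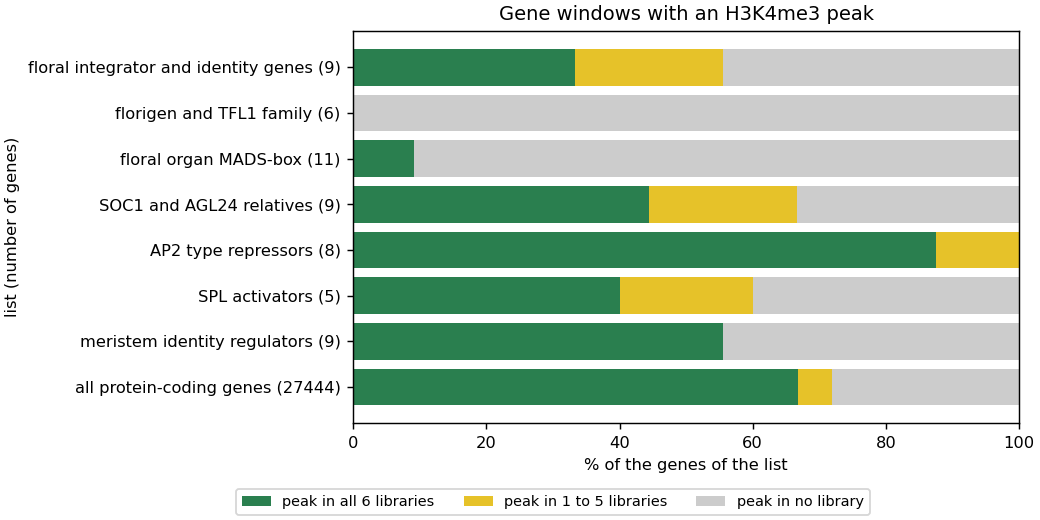
Share of genes (horizontal axis, %) with a peak in their window in all 6 libraries, in 1 to 5 and in none, for the 9 floral genes, 6 lists of other flowering genes and all protein-coding genes. The florigen family has no peak in any gene and 7 of the 8 AP2-type genes have one in all libraries, against 66.8% of all genes.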

How the data were processed

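H3K4me3 peak lists of 6 libraries were used, and the 3 H3 samples were not analysed here. Per the submitters' processing notes, which give no roles, the build was TAIR10 and the tools were MACS 1.4, Bowtie2 2.2.8, deepTools 2.4.1 and ChIPseeker. The deposited lists give a start and end in bp and the authors' peak score, for which MACS 1.4 writes a transformed p-value. Their names pair both libraries of a genotype with 1 H3 control, so a fault of that control would touch both.

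Starts were set to count from 1. Gene bodies came from a RefSeq table of TAIR10.1, whose positions are not printed. In 109 of 112 stretches of 1000 kb the table matched the peaks best at a shift under 400 bp. Bp of peak per window were tested with limma 3.58.1 (R 4.3.3) on log2(bp + 200), in 1 fit of all 6 libraries (3 residual degrees of freedom), over windows with a peak in at least 2 libraries, with Benjamini-Hochberg adjustment over all of them and a threshold of 0.05. The exact permutation test of 2 libraries against 2 cannot go below p = 0.333 and was not used. The fit was tested on simulated data. Tables and plots used Python 3.11.15, pandas 2.3.3, numpy 2.4.6 and matplotlib 3.10.9.

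The 9 genes, the lists and the tests were chosen with earlier results of these data known. In the lists, genes are named if called, if marked in some libraries only, or if among the 2 largest changes of their list in either mutant, and 3 genes are named as most like the member of widest range. Planned promoter motifs were not searched. Other genes given by name, among them those at 0 and neighbours of the 9, were added after their values were seen. Windows, pseudocounts, score minima, minimum overlap, equal numbers of peaks, filters, fits and left-out libraries were varied.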

Additional observations from a re-analysis of the deposited data

How the results depend on the processing

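Peak length was tested in 12 comparisons (4 genes by 3 contrasts), and 193 of 207 alternative values kept their direction and their side of the threshold. These include the SEP4 comparisons with Col-0, whose p-values are too small under each alternative, since both Col-0 libraries are at 0 and the gene was tested through its mutant peaks. Filters on genes, variance settings, the replicate block, fits of 4 libraries and leaving out a library outside the comparison cannot change a log2 difference. Under these alternatives only the side of the threshold could change, so the direction was not tested by them. SEP4 could not be tested at a minimum score of 100 or with a peak required in all 6 libraries, nor AGL24 over the gene body alone. LFY turned positive at a minimum score of 100, to 1.18 in jmj28-2 and 0.72 in atx1/2, and to 0.075 in jmj28-2 without its replicate 2 (-0.36 without its replicate 1). Over the gene body SOC1 in atx1/2 was at -0.012. Without Col-0 replicate 2 AGL24 in jmj28-2 was at 0.18 (limma adjusted p = 0.315), and without Col-0 replicate 1 it was at -0.42 (0.0453). In atx1/2 the same fits gave 0.46 (0.0326) and -0.15 (0.345). Without atx1/2 replicate 1 SEP4 differed between the mutants by -0.0023, and without atx1/2 replicate 2 by 0.096. A library left out leaves a lone one that is assumed to vary like the others.

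With a peak in all 6 libraries, 65 windows were called in jmj28-2, 97 in atx1/2 and 76 between the mutants, against 241, 311 and 249; fewer windows are tested there. Leaving out 1 library gave 266 to 321, 262 to 387 and 201 to 342. Windows that lost or gained a peak numbered 236 in jmj28-2 and 294 in atx1/2, and 405 to 442 and 437 to 507 with 1 library left out, since 1 library then stands for a genotype. At a score of 100 or more, 3 of the 9 genes had a peak in some library, against 5.

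Peak lengths of same-numbered libraries showed little common deviation (r between -0.0183 and 0.0643 over 18343 genes with a peak in all 6 libraries). The labels do not say what the replicate number stands for, and whether same-numbered libraries shared a batch was not tested. With the replicate number as a block, 211, 275 and 213 windows were called, and no call changed for the 9 genes.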
